A study of Mus musculus with 10 samples.

Results

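The 41 genes described here encode the machinery that copies DNA in S phase, together with enzymes that make its nucleotides and proteins that restore chromatin behind the fork. They were taken by name from a list, not by a threshold on measured values, out of 27729 distinct gene names on the arrays. In each comparison a gene was followed through the brightest probe that named it and had a value. A value was obtained for 40 of the 41 in isolated crypts, for 40 in organoids after deletion of Lgr4 and Lgr5, and for 38 in organoids after withdrawal of R-spondin. The missing values (Mcm6 in crypts, Pole in deleted organoids, and Mcm4, Pole2 and Rfc3 on withdrawal) belonged to spots that the scanner software had marked as outliers.

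The series asked what small intestinal epithelium of the mouse loses when R-spondin signalling is cut, either at the receptors or at the ligand. R-spondins are secreted proteins that bind Lgr4 and Lgr5 and raise the cell's response to Wnt. Crypts were isolated with 2 mM EDTA from Lgr4/Lgr5 double knock-out mice 1 day after P450Cre (a Cre driven by a cytochrome P450 promoter) had been induced, and the RNA was hybridised against RNA of wt control crypts on 4 arrays, as 2 biological replicates with swapped dyes. Organoids, which are cultured epithelial structures grown from crypts, came from VillinCre Lgr4fl/fl-Lgr5fl/fl mice 1 day after deletion (2 cultures) and from VillinCre_wt mice after tamoxifen induction for 1 day (2 cultures). Villin-driven Cre is active in the epithelium, and organoids are grown to hold epithelium alone. Markers of other tissue in them are given below. For the ligand experiment, 1 culture was kept without R-spondin (EN, medium with EGF and Noggin) and 1 with it (ENR) for 1 day after splitting. All organoid RNA was hybridised in Cy5 against Stratagene's mouse reference RNA in Cy3. Age, sex and the number of animals behind each sample are not stated in the labels.

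DNA replication starts in G1, when Cdc6 and Cdt1 load rings of Mcm2 to Mcm7 onto origins. In S phase Cdc45 and the GINS proteins turn those rings into the active helicase, primase and the polymerases copy both strands, Pcna holds the polymerases on DNA, and Fen1 and Lig1 join the lagging strand. E2F transcription factors switch on most of these genes at the start of S phase, so their RNA level follows how many cells of a sample are cycling as well as how much each cell makes. In crypts the cycling cells are the stem cells and the transit-amplifying cells above them. In all samples here, which are bulk RNA, fewer cells in S phase and less RNA per cell cannot be told apart.

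What the members share in sequence is shown first, because the genes are known as E2F targets. RefSeq promoters (GRCm38.p6, 250 bases before to 50 after each start) were matched for 34 of the 41 members, 42 promoters in all. The E2F motif was searched on both strands as TTTGGCGC, TTTCCCGC, TTTCGCGC or TTTGCCGC, and a palindromic stretch can match on both strands in overlap. It was present for 14 of the 34 members (41.2%), against 2.6% of 27025 genes in the table and 4.8% of 8754 genes with a value in crypts. A CCAAT box was present for 64.7% of the members and 41.1% of all genes. The cell cycle homology motif, TTTGAA or TTCGAA, stood at 20.6% against 21.7%. The TCF motif through which Wnt signalling acts, CTTTGAT or CTTTGTT, stood at 5.88% (2 of 34 members) against 10.6%. Among genes with a value in crypts, the CCAAT box stood at 43.4%, the cell cycle homology motif at 16.8% and the TCF motif at 7.49%. A gene with several promoters was counted once if any of them held the motif. A match is a stretch of letters and not a measured site. The 4 promoters below are examples: Mcm6, a subunit of the helicase ring, had the most matches (3), Dtl and Pola1 had 1 each, and Pcna, which differed least on R-spondin withdrawal, had none. On withdrawal Chaf1b (12.4-fold lower), Mcm2 (9.96-fold) and Prim1 (9.75-fold) also had none, while Cdt1, with 1, was 4.36-fold lower. Capitals mark the E2F motif, and each sequence runs 5′ to 3′ along the gene.
Mcm6, minus strand, chr1:128359656-128359955: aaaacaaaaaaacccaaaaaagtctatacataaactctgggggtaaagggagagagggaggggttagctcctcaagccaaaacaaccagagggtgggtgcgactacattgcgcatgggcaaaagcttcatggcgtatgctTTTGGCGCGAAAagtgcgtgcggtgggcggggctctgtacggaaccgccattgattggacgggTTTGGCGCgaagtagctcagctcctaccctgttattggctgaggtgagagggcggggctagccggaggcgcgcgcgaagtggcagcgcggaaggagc
Dtl, minus strand, chr1:191575495-191575794: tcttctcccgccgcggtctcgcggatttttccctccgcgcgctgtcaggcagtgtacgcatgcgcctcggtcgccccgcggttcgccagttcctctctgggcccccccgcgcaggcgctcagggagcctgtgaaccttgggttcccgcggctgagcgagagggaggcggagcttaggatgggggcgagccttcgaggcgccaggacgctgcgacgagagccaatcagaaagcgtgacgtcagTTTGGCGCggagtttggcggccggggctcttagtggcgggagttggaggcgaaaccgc
Pola1, minus strand, chrX:93632106-93632405: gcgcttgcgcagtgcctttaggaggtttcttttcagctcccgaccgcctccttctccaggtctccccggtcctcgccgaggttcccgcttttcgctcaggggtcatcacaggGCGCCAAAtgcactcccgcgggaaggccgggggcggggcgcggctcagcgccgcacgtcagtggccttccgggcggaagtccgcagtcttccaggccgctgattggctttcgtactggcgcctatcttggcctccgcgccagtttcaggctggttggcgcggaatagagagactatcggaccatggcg
Pcna, minus strand, chr2:132253131-132253430: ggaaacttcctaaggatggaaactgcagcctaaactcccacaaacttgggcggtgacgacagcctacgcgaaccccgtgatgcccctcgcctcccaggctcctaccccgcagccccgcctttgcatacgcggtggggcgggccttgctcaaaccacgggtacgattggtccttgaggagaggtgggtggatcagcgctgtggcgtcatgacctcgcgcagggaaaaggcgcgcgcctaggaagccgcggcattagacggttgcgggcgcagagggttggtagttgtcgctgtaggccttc
In Dtl the motif began 8 bases before the start. The members with an E2F motif had a median log2 change of -1.20 in deleted organoids (14 genes) and of -2.99 on R-spondin withdrawal (12 genes). For members whose matched promoters held none, the medians were -0.82 and -2.12 (20 genes each). In crypts the same medians were -0.27 and -0.14. These medians describe lists and were not tested.

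The arrays differed in ways that touch the members. In the reference channel of the 4 organoid deletion arrays, negative control spots read 5883 to 6564, above the gene probes (1830 to 1933), whereas they read 92.0 to 117 on the other arrays. The organoid deletion was therefore read from Cy5 alone, quantile normalised between the 4 arrays, and the ratio is given beside it. Over 12139 genes in crypts, the pair of arrays with exchanged dyes had a correlation of 0.92 in replicate 2 and of 0.36 in replicate 1. Across the members the same correlations were 0.91 and 0.01. The deleted genes matched the labels in crypts, where Lgr4 stood at a log2 ratio of -1.56 ± 0.22 (SE) and Lgr5 at -1.68 ± 0.23, below 0 on 4 of 4 arrays. Raw Cy5 of Lgr5 in the deleted organoids (108 and 119) was not above background. The Lgr4 probe used in crypts read 2035 and 2846 in wild-type and 198 and 356 in deleted organoids, still above background. Another Lgr4 probe read 897 and 944 against 120 and 130. A further one did not separate the groups (299 and 226 against 406 and 219). Of 8 epithelial markers, 5 (Epcam, Cdh1, Vil1, Krt18 and Cdx2) were counted as above background in all organoid samples. Krt8, Krt19 and Cldn7 were not so counted in every sample, although their spots were bright. Raw Cy5 without and with R-spondin was 459690 and 317880 for Krt8, 322530 and 152140 for Krt19, and 120210 and 92150 for Cldn7. In the organoid deletion comparison these genes had no value because of spots marked as outliers. Of 10 stroma markers, Col1a1, Col1a2, Col3a1, Dcn, Vim and Acta2 were above background in all organoid samples. Summed Cy5 of the 6 measured ran from 6518 to 7040 in wild-type and 5742 to 7432 in deleted cultures. Of 11 T cell markers, Cd3e, Ccl5 and Thy1 were above background in all of them. Summed Cy5 of the 3 measured ran from 678 to 1327 in wild-type and 774 to 1352 in deleted cultures.

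In organoids 1 day after deletion of Lgr4 and Lgr5, the replication genes were lower as a body. All 40 measured members had a negative log2 difference in Cy5 signal, as did 47.6% of all 13200 genes. The members' median was -0.99 (1.99-fold lower), while the median over all genes was 0.02. In 36 of 40 members both deleted cultures lay below both wild-type cultures, which was so for 18.5% of all genes. The exceptions were Pold1, Rfc1, Rfc5 and Rpa3. No member passed an adjusted p of 0.05 (limma, Benjamini-Hochberg over all genes, 0.00758% of genes called lower and 0.0303% higher). The smallest adjusted p of a member was 0.292, for Mcm2 and Uhrf1. At an unadjusted p of 0.05, 25 of 40 members were lower, against 4.27% of all genes.

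The 2 slides of this experiment each held 1 wild-type and 1 deleted culture. With the slide as a block, limma called 12 of 40 members lower at an adjusted p of 0.05, with 1.52% of all genes called lower. They were Mcm2, Mcm3, Mcm4, Mcm5, Gins1, Pola1, Prim2, Rfc1, Rpa1, Uhrf1, Dtl and Dnmt1. Their adjusted p-values in that limma fit ran from 0.0168 (Dtl) to 0.0450 (Gins1). No member was called higher, with 1.11% of all genes called higher. The size of the difference was not the same on the slides: the median over members was -1.45 on slide 1 and -0.54 on slide 2. Deleted culture 1 lay below both wild-type cultures for 40 of 40 members (32.4% of all genes) and deleted culture 2 for 36 (31.7%). Wild-type culture 2 minus wild-type culture 1 had a median of -0.06 over the members. Deleted culture 1 minus deleted culture 2 had a median of -0.94. Without deleted culture 1 the median was -0.56, and without deleted culture 2 it was -1.57.

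**Figure D1:**
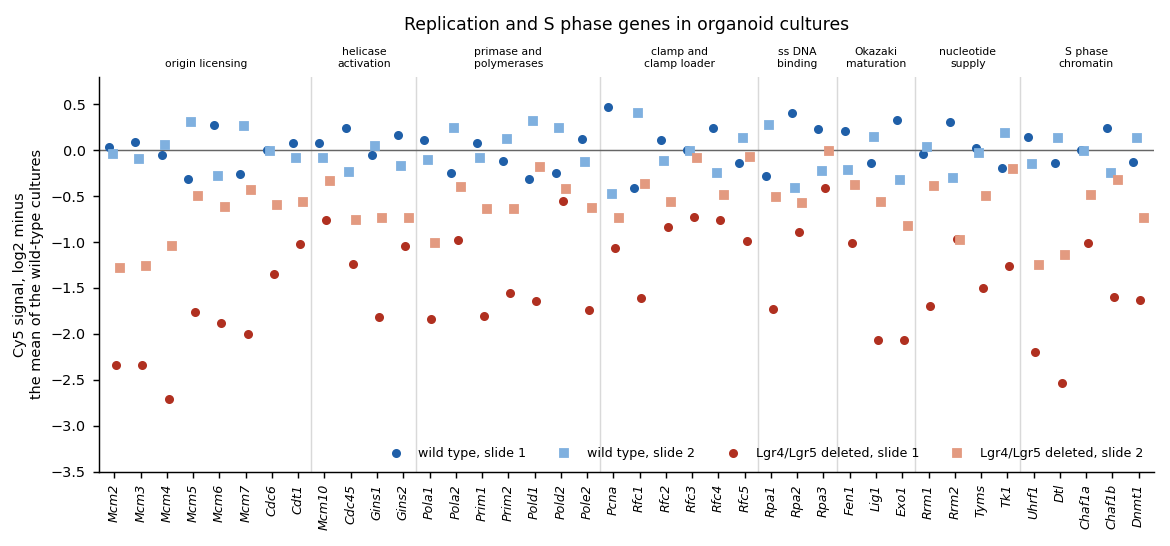
Normalised Cy5 signal of each member in the 2 wild-type (blue) and 2 Lgr4/Lgr5 deleted (red) organoid cultures, on a log2 scale relative to the mean of the wild-type cultures, in order of role. Circles are slide 1 and squares slide 2. Deleted culture 1 is below both wild-type cultures for 40 of 40 members and deleted culture 2 for 36 of 40.

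The lowest value of all members lay among the origin licensing genes. Mcm4, a subunit of the helicase ring, had Cy5 signals of 13827 and 14909 in the wild-type cultures and 2193 and 6999 in the deleted cultures, a log2 difference of -1.87 ± 0.53 (SE, n = 2 cultures each; limma adjusted p = 0.465). Mcm2 read 1567 and 1490 against 303 and 629, a difference of -1.81 ± 0.37, and Mcm3 read 8976 and 7894 against 1666 and 3510, a difference of -1.80 ± 0.38. In all 3 the wild-type cultures were close together and deleted culture 1 was the lowest. Mcm5, Mcm6, Mcm7 and Cdc6 lay between -1.25 and -0.97. Cdt1, the loading factor that geminin restrains, had the smallest difference of the 8, with 9802 and 8734 in the wild type and 4548 and 6267 after deletion (-0.79 ± 0.25). The median of the licensing genes was -1.23.

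Among the genes that activate the helicase, Gins1 had the lowest value (1125 and 1202 against 330 and 697, difference -1.28 ± 0.38). Mcm10, which helps start the activated helicase, had the highest (2986 and 2674 against 1670 and 2243, difference -0.55 ± 0.25). Neither overlapped between the groups. Of the polymerase genes, Pola1, the catalytic subunit of the polymerase that extends primers, read 1449 and 1242 in the wild-type and 375 and 668 in the deleted cultures, a difference of -1.42 ± 0.32. Pold2, an accessory subunit of polymerase delta, read 1209 and 1699 against 977 and 1074, a difference of -0.49 ± 0.25. The 7 measured polymerase and primase genes had a median of -1.10.

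The clamp and its loader differed less, with a median of -0.66 over 6 genes. Rfc1, the large subunit of the loader, had the lowest value at -0.99 ± 0.48, from 1864 and 3295 in the wild type and 813 and 1923 after deletion. Here the groups overlapped, since deleted culture 2 exceeded wild-type culture 1. Rfc3, a small subunit, read 719 and 715 against 434 and 675 (-0.41 ± 0.28). Pcna, the clamp itself, read 29308 and 15197 against 10111 and 12688, a difference of -0.90 ± 0.36. Its wild-type cultures differed more from each other than deleted culture 2 did from wild-type culture 2.

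The 3 subunits of replication protein A, which coats single-stranded DNA, did not share 1 value. Rpa1, the DNA-binding subunit, read 2665 and 3900 against 975 and 2260 (-1.12 ± 0.44). Rpa3, the smallest subunit, read 2265 and 1647 against 1452 and 1924 (-0.21 ± 0.27), and these cultures overlapped. On slide 2 alone Rpa3 was 0.22 higher after deletion. Of the genes for lagging strand maturation, Exo1, an exonuclease, had 1837 and 1170 against 350 and 831 (-1.44 ± 0.45). Fen1, the flap endonuclease, had 1224 and 908 against 525 and 813 (-0.69 ± 0.30).

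The 4 genes of nucleotide supply lay close together. Rrm1, the large subunit of ribonucleotide reductase, read 3874 and 4095 in the wild type and 1227 and 3051 after deletion (-1.04 ± 0.43). Tk1, the salvage thymidine kinase, read 2500 and 3250 against 1189 and 2470 (-0.73 ± 0.38). Both deleted cultures were the lower ones for each gene, for Tk1 by a small margin on culture 2. Among the S phase chromatin genes, Dtl, the substrate receptor that marks Cdt1 for destruction, read 951 and 1152 against 181 and 476, a difference of -1.83 ± 0.46. Uhrf1, which recruits the maintenance methyltransferase Dnmt1 to new DNA, read 3874 and 3148 against 763 and 1474 (-1.72 ± 0.35). Chaf1a, a subunit of the histone chaperone CAF-1, had the smallest difference of the 5, with 1094 and 1084 against 540 and 776 (-0.75 ± 0.26).

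Read as the ratio to the reference, with the faulty channel included, the median of the members was -0.60. Below 0 were 38 of 40 members, against 45.6% of all genes. Both deleted cultures lay below both wild-type cultures in 24 of 40 members, against 13.7% of all genes. The exceptions in sign were Pola2 (0.60) and Rpa3 (0.02). With median centring of Cy5 in place of quantile normalisation, 23 of 40 members kept both deleted cultures below both wild-type cultures, against 10.8% of all genes. In the authors' value table, which holds the ratio as the scanner software gave it, the median was -0.26 against 0.17 over all genes, and 11 of 40 members had both deleted cultures below both wild-type cultures, against 2.43% of all genes. There Rpa1 (1.32) and Rfc1 (0.42), both called with the slide as a block, were above 0. By Cy5, the stem cell markers in the same cultures had a median of -2.02 (8 of 8 lower) and the Paneth cell markers -0.78 (8 of 8 lower). The enterocyte markers had 0.42 (8 of 9 higher). By the ratio these 3 medians were -1.05 (7 of 8 lower), -0.46 (7 of 8 lower) and 0.10 (6 of 9 higher). The summed Cy5 signal of the stem cell list ran from 25920 to 37250 in the wild-type and from 5888 to 9282 in the deleted cultures. The part of these cell types in the members' difference was not tested.

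Withdrawal of R-spondin for 1 day gave larger differences in the same direction, measured in 1 culture per condition and therefore without a test. All 38 measured members were more than 1.5-fold lower without R-spondin, which was so for 13% of 17025 genes. More than 2-fold lower were 33 of the 38, against 6.53% of all genes. The median of the members was -2.48 on the log2 scale (5.59-fold lower), while that of all genes was 0.07. Relative to the reference RNA, the median member stood at -0.22 with R-spondin and at -2.69 without it. From the Cy5 channel alone the median was -2.53, with 39 of 39 members lower, against 44.6% of all genes. All measured members were above background in both cultures, so that these folds are measured on both sides. Markers of cell types differed in the same cultures: 9 of 9 stem cell markers were lower (median ratio difference -2.83), with a summed Cy5 signal of 50830 with and 5142 without R-spondin. Of the Paneth cell markers 6 of 8 were lower by the ratio (median -0.27) and 8 of 8 by Cy5 (median -1.13). Of the enterocyte markers 3 of 4 measured were higher by the ratio (median 0.18) and 5 of 6 by Cy5 (median 1.06). That list held 11 genes, and the others, Fabp1, Fabp2, Sis and Krt20 among them, had no value. The part of these cells in the members' values was not tested.

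**Figure D2:**
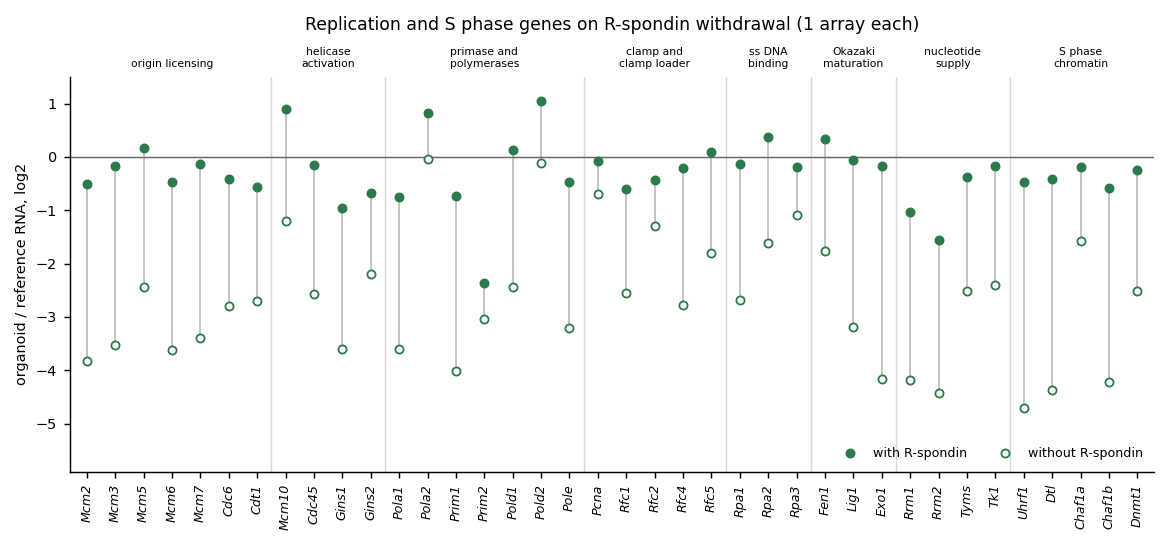
Log2 ratio of each member to the reference RNA in the organoid culture with R-spondin (filled) and in the culture without it (open), 1 array each, joined by a line and ordered by role. The open circle lies below the filled one for 38 of 38 members.

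The order of the roles was led by S phase chromatin (median -3.63), origin licensing (-3.15) and lagging strand maturation (-3.13). Uhrf1 had the largest difference of all members, at a log2 ratio of -0.47 with and -4.70 without R-spondin, which is 18.8-fold. Its normalised Cy5 signals were 4658 and 233. Exo1 followed with 4385 and 272 (16.0-fold by the ratio) and Dtl with 1496 and 99.7 (15.7-fold). Chaf1a had the smallest difference of the chromatin genes, at 2841 and 1193 (2.59-fold). In the licensing group Mcm3 read 3252 with and 326 without R-spondin (10.3-fold), and Cdt1 read 14035 and 3830 (4.36-fold). The licensing genes thus spanned 4.36-fold to 10.3-fold.

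Helicase activation had a median of -2.25. Gins1 read 2308 with and 349 without R-spondin (6.20-fold), and Gins2, another subunit of the same complex, read 2388 and 861 (2.88-fold). Of primase, which lays down the RNA primers, the catalytic subunit Prim1 read 7083 and 811 (9.75-fold). The regulatory subunit Prim2 read 250 and 144 (1.59-fold). Fen1, the smallest difference in lagging strand maturation, read 3458 and 808 (4.27-fold). Rrm1 read 9704 and 1053 (8.80-fold) and Tyms, thymidylate synthase, 11228 and 2495 (4.41-fold). Both enzymes feed the pool of deoxynucleotides.

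The clamp and loader (median -1.90) and replication protein A (-1.99) stood at the other end of the order. Pcna read 39116 with and 26484 without R-spondin, 1.52-fold by the ratio, which left it just past the 1.5-fold limit. Rfc4, a loader subunit, read 6823 and 1215 (5.93-fold). Rpa1 read 9514 and 1461 (5.87-fold) and Rpa3 2713 and 1542 (1.87-fold). Rpa3 also had the smallest difference in the deleted organoids.

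Probes of 1 gene did not always give 1 value on withdrawal. The Dtl probe at mm9 chr1:193361353-193361412 gave -3.97 and another at chr1:193363084-193363143 gave -0.93. For Tyms, the probe at chr5:30387605-30387664 gave -2.14 and the one at chr5:30387873-30387932 gave -0.08. In each case the larger difference came from the brighter probe, which was the one used. The range between probes of a gene had a median of 0.75 over 7 members with several measured probes. Among probes above background, no pair disagreed in sign in the organoid comparisons. In crypts the probes of Rpa2 did, at 0.11 and -0.02.

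The members' values in the 2 organoid comparisons ran in a similar order. Across the 36 members measured in all comparisons, the change on deletion and the change on R-spondin withdrawal had a Pearson correlation of 0.73 and a Spearman correlation of 0.75. These experiments share no culture, but they share the array design and, except for Mcm3 and Rfc2, the probes. The Mcm3 probe used on withdrawal gave -1.34 on deletion. Uhrf1, Dtl, Mcm2, Mcm3 and Exo1 were low in both, and Rpa3 and Pold2 had small differences in both. Prim2 and Pcna departed from that order, with log2 differences of -1.10 and -0.90 on deletion against -0.67 and -0.60 on withdrawal. Between the slides of the deletion experiment the correlation across members was 0.60.

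**Figure D3:**
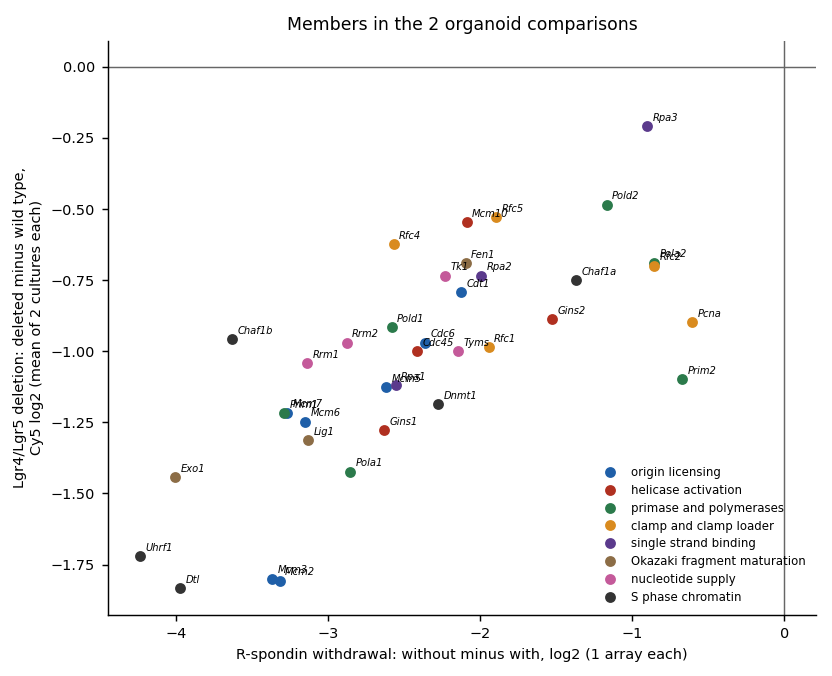
Log2 difference of each member on R-spondin withdrawal (horizontal, 1 array each) against its difference in Cy5 signal on Lgr4/Lgr5 deletion (vertical, mean of 2 cultures each), coloured by role. All points lie below 0 on both axes. Uhrf1 and Dtl are at the lower left, and Rpa3 and Pold2 at the upper right.

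In crypts isolated 1 day after deletion the members differed little and not in the same way in the replicates. The median log2 ratio of deleted to wild type was -0.25 (1.19-fold lower) against -0.02 over all 12139 genes. Below 0 were 30 of 40 members, against 52.4% of all genes. With median centring in place of loess, the members' median was -0.06 and that of all genes 0.15, with 22 of 40 members below 0. Replicate 1 had a median of -0.44 with 35 of 40 members below 0, and replicate 2 a median of -0.03 with 21 of 40. On the single arrays the medians were -0.25 and -0.47 in replicate 1 and 0.07 and -0.02 in replicate 2. No member passed an adjusted p of 0.05 (limma, 0.00824% of genes called lower and 0.0494% higher). At an unadjusted p of 0.05, 7 of 40 members were lower, against 7.35% of all genes. On all 4 arrays, 11 of 40 members were below 0, against 14.2% of all genes, and 1 member, Fen1, was above 0 on all 4 (13.4% of all genes).

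**Figure D4:**
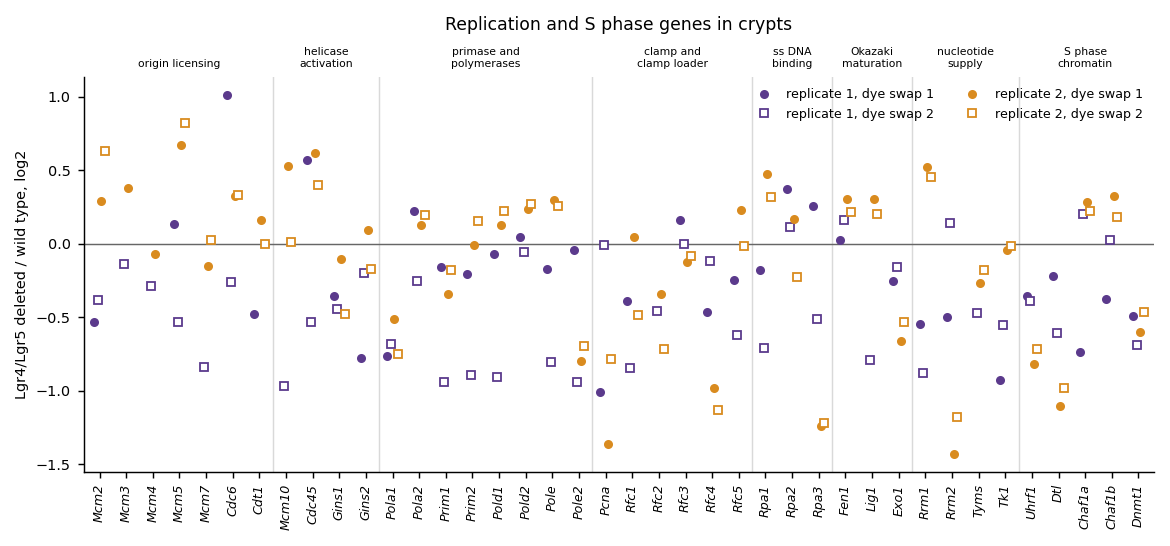
Log2 ratio of Lgr4/Lgr5 deleted to wild-type crypts for each member on the 4 arrays, ordered by role. Purple is replicate 1 and orange replicate 2, filled circles are dye swap 1 and open squares dye swap 2. Across the members the orange pairs correlate at 0.91 and the purple pairs at 0.01, and the arrays of most members lie on both sides of 0.

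The lowest values in crypts belonged to genes of different roles. Pcna stood at -1.01 and -0.01 on the arrays of replicate 1 and at -1.36 and -0.79 on those of replicate 2, a mean of -0.79 ± 0.25 (SE, n = 2 replicates; limma adjusted p = 0.280). Without the second dye swap of replicate 1 it stood at -1.04 with a limma adjusted p of 0.0389, the only member called in that fit, where 1.9% of genes were called lower. Rrm2, the small subunit of ribonucleotide reductase, read -0.50 and 0.14 in replicate 1 and -1.43 and -1.18 in replicate 2 (-0.74 ± 0.32). Dtl read -0.22, -0.61, -1.11 and -0.98 (-0.73 ± 0.25), and Pola1 read -0.77, -0.69, -0.51 and -0.75 (-0.68 ± 0.22). Dtl and Pola1 were below 0 on every array. Rpa3 read 0.26, -0.51, -1.24 and -1.22 (-0.68 ± 0.31), with replicate 2 well below replicate 1.

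The other low ends of the roles were nearer 0. Mcm7 stood at -0.45 ± 0.27, from 3 arrays (-0.84 in replicate 1, -0.15 and 0.03 in replicate 2). Mcm10 had -0.97 on its single array of replicate 1 and 0.53 and 0.01 in replicate 2, so that its mean of -0.35 ± 0.33 rests on replicate 1. Exo1 read -0.26, -0.16, -0.66 and -0.53 (-0.40 ± 0.23). The values of replicate 1 rested on 1 array for Mcm3, Mcm4, Mcm7, Cdt1, Mcm10, Rfc2, Lig1 and Tyms, and those of replicate 2 for Mcm3 and Mcm4.

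At the high end, Cdc6, the licensing ATPase, read 1.01 and -0.26 in replicate 1 and 0.32 and 0.33 in replicate 2 (0.35 ± 0.22). Cdc45, part of the helicase, read 0.57, -0.53, 0.62 and 0.40 (0.26 ± 0.24). Fen1 read 0.02, 0.16, 0.31 and 0.22 (0.18 ± 0.22). Pold2 (0.12 ± 0.22), Rpa2 (0.11 ± 0.22), Chaf1b, the other large CAF-1 subunit (0.04 ± 0.23), Rfc3 (-0.01 ± 0.22) and Rrm1 (-0.11 ± 0.33) completed the high ends of their roles. None of these stood apart from 0 by its error in a way that passed the test. Origin licensing had a median of 0.00 in crypts, where it had -1.23 in deleted organoids. S phase chromatin (-0.56) and the clamp and loader (-0.46) had the lowest role medians in crypts.

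Across 36 members the crypt change had a correlation of 0.09 with the change in deleted organoids and of 0.06 with the change on R-spondin withdrawal, and the crypt replicates had 0.08 with each other. In the same crypts the stem cell markers had a median of -0.83 (8 of 9 lower), with -0.97 in replicate 1 and -0.82 in replicate 2. T cell markers stood higher in deleted crypts, 10 of 10 with a median of 1.71, and were above 0 in both replicates. Their summed signal ran from 2697 to 21640 in wild-type RNA and from 8875 to 121500 in deleted RNA. Of the stroma markers, 5 of 5 measured were lower (10 listed, median -0.76). Among them Vim (-0.85 and 0.59) and Acta2 (0.24 and -0.46) differed in sign between replicates 1 and 2. Paneth cell markers (8 of 8 lower, median -0.90) and enterocyte markers (9 of 9 measured higher, median 0.65) also differed. The part of these cells in the members' values was not tested.

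Other genes of the pathway had smaller medians than the members. Of 57 further replication genes, among them the origin recognition complex, fork protection factors and histone chaperones, 52 of 55 measured were lower in deleted organoids (median -0.58), 50 of 53 on R-spondin withdrawal (median -1.50) and 39 of 54 in crypts (median -0.14). Of all genes, 47.6%, 42.6% and 52.4% were lower in these comparisons. The counts below are of the further replication genes. None passed the adjusted p of 0.05 in limma in crypts or deleted organoids; at an unadjusted p of 0.05, 22 of 55 were lower and 0 higher in deleted organoids (4.27% and 3.45% of all genes), and 8 of 54 were lower and 1 higher in crypts (7.35% and 6.46% of all genes). In deleted organoids Cdca7, a chromatin factor needed for DNA methylation upkeep, was the lowest, at 3527 and 5217 in the wild type and 623 and 939 after deletion (-2.49, limma adjusted p = 0.106). At the low ends of their own sub-lists, Mcm8, a paralogue of the helicase subunits, stood at -1.40 and Dut, which removes dUTP, at -1.39. At the high ends stood Pold4, the small polymerase delta subunit (0.46), Samhd1, which degrades deoxynucleotides (0.15), and Mcm9 (0.09).

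On withdrawal Cdca7 was again the lowest of these genes (15.1-fold lower). The lowest of the other sub-lists were Timeless, a fork protection factor (8.80-fold lower), Dut (6.67-fold lower) and Mcm8 (5.93-fold lower). Pold4 and Samhd1 stood higher without R-spondin, by 1.12 and 0.75 on the log2 scale. In crypts Pclaf, a Pcna-binding protein, had -1.17 and Dut -1.07, and Pold4 again had the highest value, 0.61. Pold4 was thus above 0 in all 3 comparisons, without passing the test where there was one.

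Among 14 regulators of S phase entry, 11 were lower in deleted organoids (median -0.31), 10 of 13 on withdrawal (median -1.17) and 13 in crypts (median -0.35). E2f7, a repressor that is itself an E2F target, was the lowest in both organoid comparisons (-0.93 and -3.21). E2f2, an activator, was the highest in deleted organoids (0.75), and Rb1, the repressor that holds E2F in G1, the highest on withdrawal (1.03). Ccne2 had the lowest value in crypts (-0.74) and Ccne1, the other cyclin E, the highest (0.08). Of 23 mitosis genes, all were lower in deleted organoids (median -0.59), all 20 measured on withdrawal (median -2.06) and 22 in crypts (median -0.42). Their extremes were Nusap1 (-1.02) and Ube2c (-0.04) in deleted organoids, Top2a (-2.80) and Ttk (-1.40) on withdrawal, and Cenpe (-0.84) and Tpx2 (0.03) in crypts. In deleted organoids mitosis genes had a median of -1.04 on slide 1 and -0.14 on slide 2, so that slide 1 was the lower one for them as for the members.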

How the data were processed

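Agilent 2-colour arrays of 10 samples were used. The authors deposited scanner intensity values per spot (median and mean signals and backgrounds of Cy5 and Cy3), the software's log10 ratio, and a value table that holds the same log10 ratio. Feature Extraction is given as version 8.5.1.1 per the submitters' processing notes and as 10.5.1.1 per the file headers. Probe coordinates are mm9. The members and gene lists were chosen with earlier results of these data known.

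Spots marked as outliers were left out, signals were background corrected with normexp (offset 50), ratios were loess normalised within arrays, and Cy5 alone was quantile normalised (limma 3.58.1, R 4.3.3). Probes were named by accession, then symbol or older symbol, through RefSeq (57 member probes). The brightest probe above background in every array of at least 1 group was kept per gene. The crypt test set the mean of each dye-swapped pair against 0, the organoid test set 2 cultures against 2, both with limma and Benjamini-Hochberg over all genes. R-spondin withdrawal was called by 1.5-fold. Fits were tested on simulated data. Organoid cultures are numbered in accession order, and cultures with the same number shared a slide. Their labels pair them in no other way. Slides, known from the deposited files' barcodes, were used as a block. The number of arrays limits the precision. P-values measure only the spread between these samples. Given in full are, in each role, the lowest and the highest member of each comparison, and of the other lists the extremes, of which 1 is not reported here.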

Additional observations from a re-analysis of the deposited data

Results flagged for a closer look

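On the 4 crypt arrays, Chaf1a, a subunit of the histone chaperone CAF-1, had 1 array far from the other 3. Its log2 ratio was -0.73 on dye swap 1 of replicate 1 and 0.20, 0.29 and 0.22 on the others, and the gap was 0.917 of the whole range. Of 32 members with a value on all 4 arrays it was the only one past Dixon's 95% limit for 4 samples. For independent samples chance gives about 1 in 20, so 1 flag among 32 members is no more than chance gives. These arrays are 2 dye-swapped pairs and are not independent.

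For 3 of the 39 members measured in both, the deletion went one way in both crypt replicates and the other way on both organoid slides. The same count over all genes was not made. In crypt replicate 1 the arrays disagreed in sign for Cdc45 (0.57 and -0.53) and Cdc6 (1.01 and -0.26). Cdc45 stood at 0.02 and 0.51 in crypts and at -1.48 and -0.52 in organoids, a gap of 1.26 between the mean changes. Cdc6 stood at 0.38 and 0.33 against -1.35 and -0.59 (gap 1.32), and Fen1 at 0.09 and 0.26 against -1.22 and -0.16 (gap 0.87). The crypt values are ratios within an array and the organoid values Cy5 differences between arrays, and the difference was not tested.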

How the results depend on the processing

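The median of the members kept its sign under every alternative run in the 3 comparisons. On R-spondin withdrawal it ran from -2.41 to -2.63, and the count over 1.5-fold lower was 37 to 39, with 33 over 2-fold lower. In crypts it ran from -0.06 (median centring without loess) to -0.29 with both replicates; leaving out 1 biological replicate gave -0.03 and -0.44 with no test, and 21 and 35 members below 0. In deleted organoids the value table gave -0.26, against -0.99 by Cy5. There 11 of 40 members had both deleted cultures below both wild-type cultures, against 2.43% of all genes. Median centring of Cy5 gave 23 of 40, against 10.8% of all genes. Leaving out 1 culture gave medians from -0.56 to -1.57.

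The share of all genes past the adjusted p of 0.05 in limma moved more than the members' medians did. In crypts it was 0.0577%, with 6.37% by processed signals, 3.86% by the value table, 2.69% with median centring, 0.799% with the median over probes, and 0% without the filter on dim probes (9.84% at an unadjusted p of 0.05). Leaving out 1 array gave 1.45% and 4.11% (replicate 1) or 0.395% and 0.209% (replicate 2). In deleted organoids it was 0.0379%, with 0.977% by processed signals, 0.196% by the value table, 0.00758% with marked spots kept, 0% by the ratio (3.91% unadjusted) or without the filter (6.62% unadjusted), 2.63% with the slide as a block, and 0.0225% to 0.788% with 1 culture left out. The cause was not tested. Of the members, Mcm4 passed by the value table in organoids.

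Near 0, signs turned. In crypts Rfc3 was 0.048 by processed signals, 0.0062 by the value table, 0.15 with median centring and 0.029 without the second array of replicate 1, and ran from -0.11 to 0.081 with 1 replicate left out. Chaf1b was -0.033 by the value table, -0.036 with marked spots kept and -0.061 without the second array of replicate 1, and ran from -0.17 to 0.25 with 1 replicate left out. Cdc45 was -0.012 without the first array of replicate 1, Rpa2 -0.033 by the value table and Rrm1 0.25 with median centring. With 1 replicate left out, Mcm10 ran from -0.97 to 0.27, Rrm1 from -0.71 to 0.49, Rpa2 from -0.030 to 0.24 and Pold2 from -0.0045 to 0.25. In organoids the value table turned Chaf1a (0.17), Rfc1 (0.42), Rfc3 (0.074), Rpa1 (1.32) and Rpa3 (0.27); Rpa3 was 0.024 by the ratio, 0.022 without wild-type culture 1 and 0.22 on slide 2. Pairing was by slide alone, since the labels give the organoid cultures no replicate numbers.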
